A study of Mus musculus with 36 samples.

Results

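The genes described here are the subunits of the transcription factor NF-kB and the inhibitors that hold it in check, 10 genes of the 24421 listed in each count file. They were chosen by symbol: Nfkb1, Nfkb2, Rel, Rela and Relb encode the 5 subunits, and Nfkbia, Nfkbib, Nfkbie, Nfkbiz and Tnfaip3 encode 5 inhibitory or modulating proteins. All 10 were found in each of the 36 libraries with at least 2 reads, and all 10 passed the filter on low counts in every comparison. The libraries came from Apoe-deficient mice (genotype Apoe ko), which lack apolipoprotein E and develop atherosclerosis, so all groups share that genotype with no group of intact Apoe for comparison. Macrophages sorted from collagenase-digested whole aortas, macrophages washed from the peritoneal cavity, and monocytes sorted from blood and spleen were each taken at 3 stages, with 4 libraries a group. The stages were baseline on chow, early atheroma after 1 month of high cholesterol diet, and advanced atheroma after 6 months of it. No label ties a library to its own mouse, so a p-value here covers the variation among 4 libraries, which may be partly technical. The comparisons address how gene expression in circulating, peritoneal and lesional cells varies with the stage of atheroma.

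NF-kB proteins work as pairs. In resting cells IkB proteins hold most pairs in the cytoplasm, and signals from cytokine or Toll-like receptors activate the IKK kinases, which mark IkB for destruction and free the pair to enter the nucleus. Rela and Rel carry transactivation domains and pair with the p50 product of Nfkb1 in the canonical pathway, while Relb pairs with the p52 product of Nfkb2 in the non-canonical pathway. Several inhibitors are themselves NF-kB targets and so form feedback loops: Nfkbia encodes IkB alpha, which is resynthesised after each round of activation, and Tnfaip3 encodes A20, a ubiquitin-editing enzyme that shuts off signalling upstream of IKK. Nfkbib and Nfkbie encode IkB beta and IkB epsilon, and Nfkbiz encodes the nuclear protein IkB zeta, an inducible cofactor that switches on a subset of secondary NF-kB targets. Macrophages use the pathway to make cytokines and chemokines, also in atherosclerotic lesions.

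RefSeq's promoter table for GRCm38.p6 held 10 windows for 7 of the 10 genes, each used here as the 250 bases before a transcript start. These bases were searched on both strands for the kappaB consensus, the general binding motif of NF-kB pairs. Windows of 5 of the 7 genes held it, in 7 of 10 windows, against 3.9% of 32851 windows of the same length genome-wide. The matches lay in Nfkbia, Tnfaip3, Rel, Nfkbie and all 3 windows of Nfkb2, and none lay in the windows of Rela and Nfkbib. Printed 5′ to 3′ on the strand of the gene, with each match in capitals, are 3 genes with a match close to the start, as an example of a promoter window that the factor's own motif lies in, and Rela as a gene with none. They are the windows of Nfkbia (chr12:55492648-55492897, minus strand), Tnfaip3 (chr10:19015411-19015660, minus strand), Nfkb2 (chr19:46304487-46304736, plus strand) and Rela (chr19:5637291-5637540, plus strand).
Nfkbia: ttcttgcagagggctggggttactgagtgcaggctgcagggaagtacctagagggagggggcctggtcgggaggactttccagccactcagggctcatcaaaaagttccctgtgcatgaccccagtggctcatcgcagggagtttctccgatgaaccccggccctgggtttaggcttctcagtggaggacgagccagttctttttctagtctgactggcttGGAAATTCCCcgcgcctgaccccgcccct
Tnfaip3: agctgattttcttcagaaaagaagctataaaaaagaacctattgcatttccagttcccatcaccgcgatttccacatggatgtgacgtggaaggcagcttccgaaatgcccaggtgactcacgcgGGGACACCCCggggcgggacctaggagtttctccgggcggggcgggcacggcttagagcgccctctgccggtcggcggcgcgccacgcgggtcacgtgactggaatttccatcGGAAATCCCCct
Nfkb2: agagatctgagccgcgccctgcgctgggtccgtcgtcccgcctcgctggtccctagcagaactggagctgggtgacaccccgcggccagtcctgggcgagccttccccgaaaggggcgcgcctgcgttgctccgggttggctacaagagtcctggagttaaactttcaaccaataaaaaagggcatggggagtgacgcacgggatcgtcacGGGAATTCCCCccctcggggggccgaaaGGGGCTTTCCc
Rela: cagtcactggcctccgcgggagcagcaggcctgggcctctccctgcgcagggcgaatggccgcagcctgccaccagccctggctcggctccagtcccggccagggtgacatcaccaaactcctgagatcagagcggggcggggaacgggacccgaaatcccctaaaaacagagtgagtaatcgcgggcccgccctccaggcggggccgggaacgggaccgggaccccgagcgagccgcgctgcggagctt
The match in Nfkbia starts 29 bases before the transcript start, the nearer match in Tnfaip3 12 bases before it, and the nearest in Nfkb2 11 bases before it. The matches at 39 and 38 bases in Nfkb2 overlap each other. A match is a match of letters, and binding was not measured.

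Libraries held 5.28 to 14.8 M counted reads at baseline and 0.943 to 2.63 M on the diet, so depth and baseline cannot be told apart, and results at matched depth are given where they differ. All 5 general macrophage markers had reads in every group, and the arterial, peritoneal and monocyte marker lists were each highest in their own population. Fibroblast markers summed to 8.89 to 1058 CPM (counts scaled to library size) in aortic libraries and at most 1.42 CPM elsewhere. Neutrophil markers summed to 227 to 642 CPM in baseline monocytes and to 3374 to 36424 CPM in monocytes on the diet. The 4 libraries of a group varied far more in the aorta (biological coefficient of variation 109.7%) than in the peritoneum (21.2%) or in monocytes (19.1%), so stages were tested within each population. Aortic baseline 3 and 4, aortic advanced 1, peritoneal early 1 and 2 and monocyte advanced 3 stood apart from their groups. Apoe itself had 2.65 to 112 CPM in aortic libraries, counted over the whole gene, and which exons the deletion removed is not in the labels, so these reads do not check the genotype.

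Per length of transcript, Nfkbia was the most abundant of the 10 in all 3 populations. Its median was 699 RPKM (reads per kilobase of exon, scaled to library size) in the aorta, 112 RPKM in the peritoneum and 159 RPKM in monocytes. In monocytes and in the peritoneum its lowest library stood above the highest library of Nfkbiz, the next gene in order. In the aorta the order went on with Nfkbiz at a median of 328 RPKM and Tnfaip3 at 108 RPKM, and neighbouring genes in that order overlapped in range at every step. The subunits were scarcer than Nfkbia and Nfkbiz in all 3 populations by median, and interleaved with the other inhibitors. In the aorta their medians ran from 32.5 RPKM for Rel to 10.1 RPKM for Relb, and in the peritoneum from 12.3 RPKM for Rela to 2.74 RPKM for Relb. Nfkb2 led the subunits in monocytes with 28.8 RPKM, ahead of Nfkb1 with 26.7 RPKM, and these ranges overlapped. Relb was last of the 10 in all 3 populations.

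The share of the 5 inhibitors in the summed RPKM of the 10 genes was 79.7 to 95.9% in the 12 aortic libraries, 71.8 to 89.4% in the 12 peritoneal libraries and 63.7 to 75.5% in the 12 monocyte libraries. Every aortic library was above every monocyte library, while aortic and peritoneal libraries overlapped. Inhibitor transcripts summed to 293 to 1585 RPKM in the aorta, against 134 to 329.5 RPKM in monocytes. Subunit transcripts summed to 37.0 to 137 RPKM in the aorta and 71.2 to 128 RPKM in monocytes, so their ranges overlapped. The sums of inhibitors are mostly Nfkbia and Nfkbiz, and all these sums are a description with no test.

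**Figure D1:**
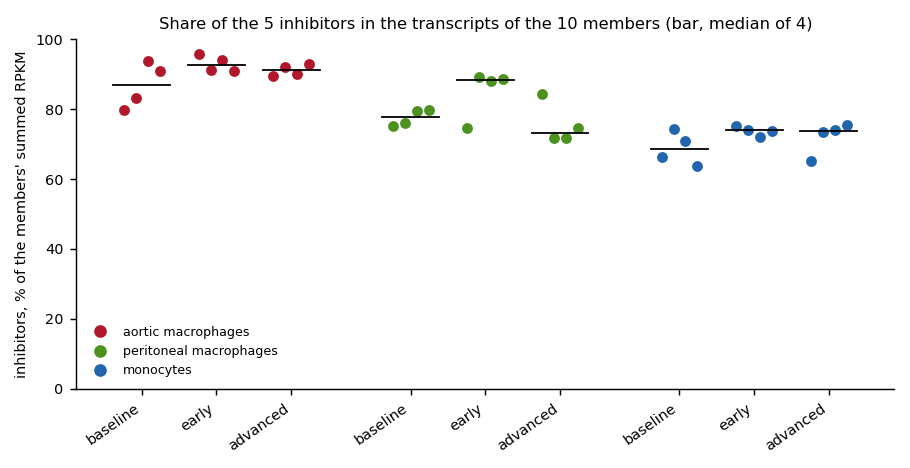
Share of the 5 inhibitors (Nfkbia, Nfkbib, Nfkbie, Nfkbiz, Tnfaip3) in the summed RPKM of the 10 genes, in percent, by library (points) with the median of 4 (bar). Aortic libraries lie between 79.7 and 95.9% and monocyte libraries between 63.7 and 75.5%.

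Averaged over stages, aortic macrophages carried several times more Nfkbia, Nfkbiz and Tnfaip3 RNA than monocytes, while of the subunits only Rel was called higher. Averaged over the 3 stages, 4 of 5 inhibitors were higher in the aorta (Nfkbia, Nfkbib, Nfkbiz and Tnfaip3), Rel was higher and Nfkb1 lower, and 4 genes did not pass. These 6 of 10 calls (5 higher, 1 lower) stand beside 36.6% of all 11052 genes tested (18.4% higher, 18.2% lower), from edgeR's quasi-likelihood test on all 36 libraries with a Benjamini-Hochberg adjusted p under 0.05. By stage, 3, 4 and 4 of the 5 inhibitors were called higher at baseline, early and advanced stages. Of all genes, 28.5, 19.3 and 16.1% were called in either direction. The median log2 difference of the 5 inhibitors was 1.31, 2.24 and 2.55. At baseline Tnfaip3 had a median of 134 CPM in the aorta against 124 CPM in monocytes, and Nfkbib 21.5 against 30.9 CPM. In bulk RNA, fewer cells of a type and less RNA per cell cannot be told apart. Collagenase digestion was used on aortas only, so digestion and population cannot be told apart.

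Nfkbiz (chr16:55811375-55838899 in GRCm38, minus strand) had a lowest, median and highest value of 364, 1645 and 2632 CPM over 12 aortic libraries, against 83.4, 248 and 329.8 CPM over 12 monocyte libraries. Its ranges did not overlap, which held for 6.01% of genes, and the log2 difference was 2.57 ± 0.23 (SE), a 5.93-fold difference (edgeR adjusted p = 1.87e-11). Tnfaip3 (chr10:19000910-19015657, minus strand) had 79.6, 777 and 1249.6 CPM in the aorta, against 52.9, 134 and 194 CPM in monocytes. Its log2 difference was 2.42 ± 0.29 (edgeR adjusted p = 1.48e-08), with 3 aortic baseline libraries inside the monocyte range. Nfkbia (chr12:55489410-55492647, minus strand) had 298, 1125 and 1573 CPM in the aorta, against 141, 257 and 315 CPM in monocytes, a log2 difference of 2.10 ± 0.21 (edgeR adjusted p = 1.51e-10). Only the lowest aortic library of Nfkbia, baseline 1, fell inside the monocyte range. Nfkbib, at 19.7, 57.5 and 82.1 CPM in the aorta against 13.6, 27.9 and 36.9 CPM in monocytes, differed by 0.94 ± 0.24 (edgeR adjusted p = 0.00182). Nfkbie, whose IkB epsilon mainly restrains Rel and Rela pairs, differed by -0.20 ± 0.40 with a 95% interval of -1.01 to 0.61.

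**Figure D2:**
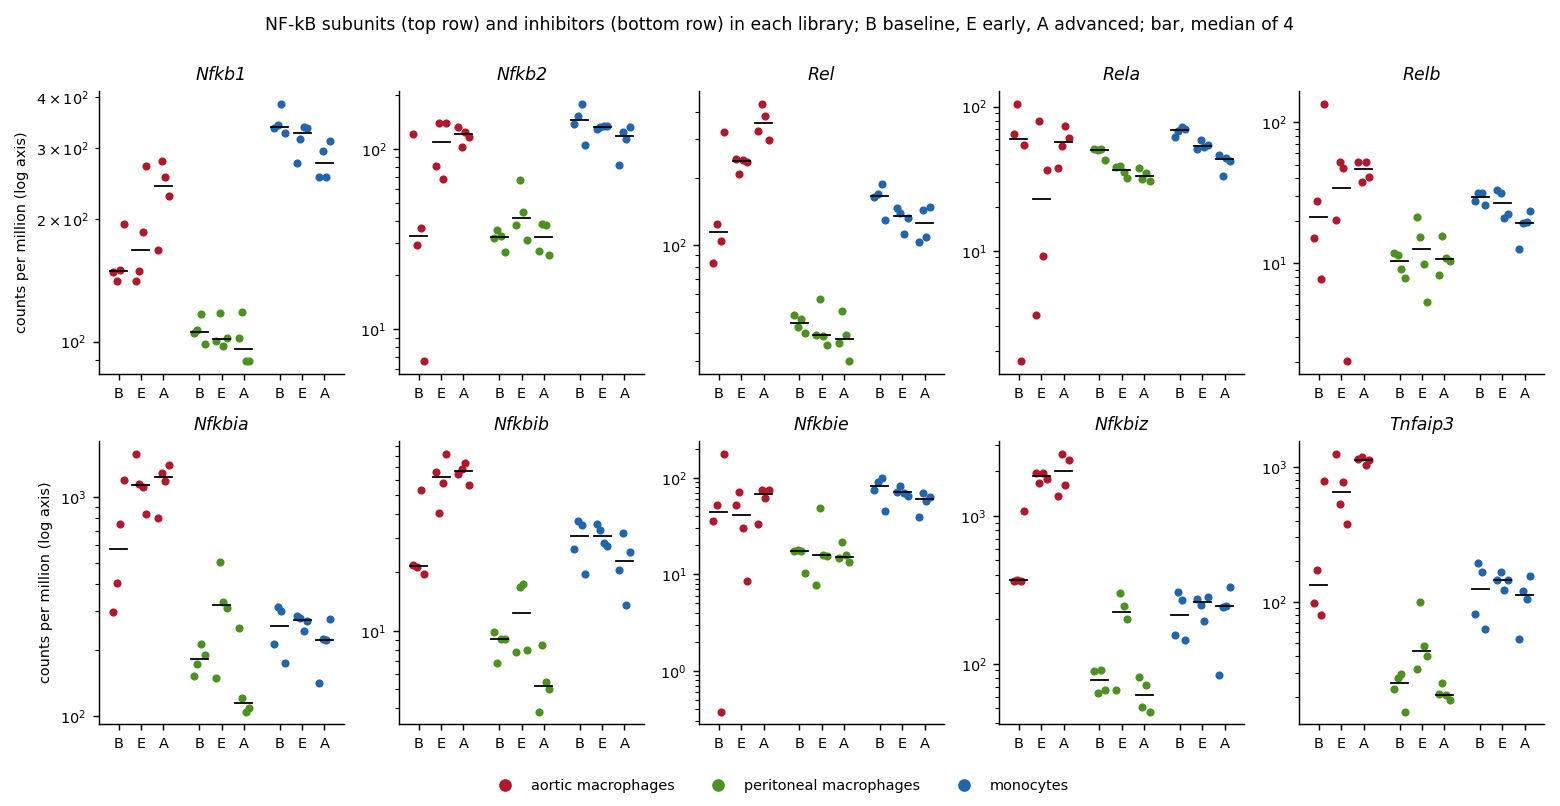
CPM (log axis) of each gene in each library (points), with the median of 4 (bar), by population and by stage (B baseline, E early, A advanced). Nfkbiz in the 12 aortic libraries (364 to 2632 CPM) lies above all 12 monocyte libraries (83.4 to 329.8 CPM), while Rela ranges from 1.70 to 105 CPM within the aorta.

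The subunits split. Rel (chr11:23736847-23770970, minus strand), the c-Rel subunit of lymphoid and myeloid cells, had 82.7, 243 and 434 CPM as lowest, median and highest in the aorta, against 103, 141 and 189 CPM in monocytes, a log2 difference of 0.89 ± 0.17 (edgeR adjusted p = 4.1e-05). Nfkb1 (chr3:135584655-135691547, minus strand), source of p50, had 141, 177 and 279 CPM in the aorta, against 255, 322 and 386 CPM in monocytes. Averaged over stages, Nfkb1 was the only gene of the 10 called lower in the aorta, at -0.61 ± 0.12 (edgeR adjusted p = 7.44e-05). By stage this difference was -1.08 ± 0.21 at baseline, -0.60 ± 0.21 at the early stage and -0.14 ± 0.20 at the advanced stage, where it no longer passed (edgeR adjusted p = 0.000103, 0.0343 and 0.779), with 28.5, 19.3 and 16.1% of all genes called at these stages. At baseline Nfkb2 was lower in the aorta as well, at -1.58 ± 0.41 (edgeR adjusted p = 0.00345). Rela differed by -0.11 ± 0.35 with a 95% interval of -0.82 to 0.59, and its aortic values were as low as 1.70 CPM (9 reads) in baseline 3 and 3.56 CPM (7 reads) in early 1. Over stages Nfkb2 at -0.52 ± 0.24 and Relb at 0.82 ± 0.38 also missed the threshold (edgeR adjusted p = 0.0843 and 0.0861), and several single libraries decide them: Nfkb2 passed without aortic baseline 1 or 4 or early 4, at -0.90, -0.45 and -0.60, and Relb without aortic baseline 3 or early 4, at 0.88 and 0.95.

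Against peritoneal macrophages, aortic macrophages were higher in 9 of the 10 genes, with estimates above 2 on the log2 scale for Tnfaip3, Nfkbiz, Nfkbib, Rel and Nfkbia. The 9 calls stand beside 34.1% of all genes called, and 17.1% of all genes called higher in the aorta. Tnfaip3 had a lowest, median and highest value of 79.6, 777 and 1249.6 CPM in the aorta, against 15.5, 26.4 and 99.3 CPM in the peritoneum, a log2 difference of 4.24 ± 0.32 (edgeR adjusted p = 1.99e-13). Nfkbiz differed by 3.55 ± 0.24, Rel and Nfkbib by 2.40 each (SE 0.17 and 0.25), Nfkbia by 2.12 ± 0.21 and Nfkb1 by 0.76 ± 0.12. Nfkb1, Nfkbib, Nfkbiz and Rel had no overlap between the 12 aortic and 12 peritoneal libraries, against 4.22% of genes. Rela was the exception at 0.12 ± 0.35, with a 95% interval of -0.58 to 0.83. With each population's own spread in place of a pooled one, Nfkbie (1.10, adjusted p = 0.211) and Relb (1.25, adjusted p = 0.117) lost their calls here, leaving 7, and an exact permutation within stages gave 8.

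The contrast between aorta and peritoneum was present at each stage. Tnfaip3 differed by 3.46 ± 0.52 at baseline, 3.68 ± 0.53 at the early stage and 5.58 ± 0.59 at the advanced stage, and Nfkbiz by 2.67 ± 0.40, 3.11 ± 0.41 and 4.89 ± 0.45. In both genes edgeR's adjusted p was at most 3.59e-06 at each of the 3 stages. Of all genes, 27.8, 16.2 and 14.0% passed at baseline, early and advanced stages, and 7 of the 10 genes passed at each, though not the same 7. At baseline these were all 5 inhibitors and 2 subunits, and at each later stage 4 inhibitors and 3 subunits. Nfkbie, called at baseline, overlapped there between aorta and peritoneum, with aortic values from 0.379 to 178 CPM.

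Averaged over stages, 7 of the 10 genes were lower in peritoneal macrophages than in monocytes, none was higher, and all 10 estimates were negative. The background was 29.8% of genes called, with 14.8% called lower. Nfkb1 had a lowest, median and highest value of 89.3, 102 and 118 CPM in the peritoneum, against 255, 322 and 386 CPM in monocytes, a log2 difference of -1.37 ± 0.12 (edgeR adjusted p = 1.12e-11). Nfkb2 (-1.61 ± 0.24) and Rel (-1.51 ± 0.17) were lower as well, and these 3 subunits had no overlap between 12 and 12 libraries, against 17.0% of genes. Among inhibitors Tnfaip3 (-1.83 ± 0.29), Nfkbie (-1.72 ± 0.41), Nfkbib (-1.46 ± 0.25) and Nfkbiz (-0.99 ± 0.22) were lower. Nfkbia did not follow them: it had 105, 181 and 502 CPM in the peritoneum and 141, 257 and 315 CPM in monocytes, and differed by -0.02 ± 0.20 with a 95% interval of -0.43 to 0.38. Rela (-0.24 ± 0.35) and Relb (-0.88 ± 0.38) missed the threshold in this fit, which pools the wide spread of the aorta with that of the other populations. With each population's own spread they passed, at -0.24 and -0.90 (adjusted p = 0.00649 and 3.57e-05), making 9 calls, and the exact permutation within stages also gave 9. Relb also passed with counts thinned to the shallowest library, at -0.96 (adjusted p = 0.049). By stage, 7, 3 and 6 of the 10 genes were called lower at baseline, early and advanced stages, with 16.3, 11.6 and 14.9% of all genes called in either direction. Nfkb1, Nfkb2 and Rel passed at each stage, and at the early stage they were the 3 called. No inhibitor passed there, with Nfkbiz at -0.10 ± 0.38 and Nfkbia at 0.46 ± 0.34 (edgeR adjusted p = 0.99 and 0.594).

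**Figure D3:**
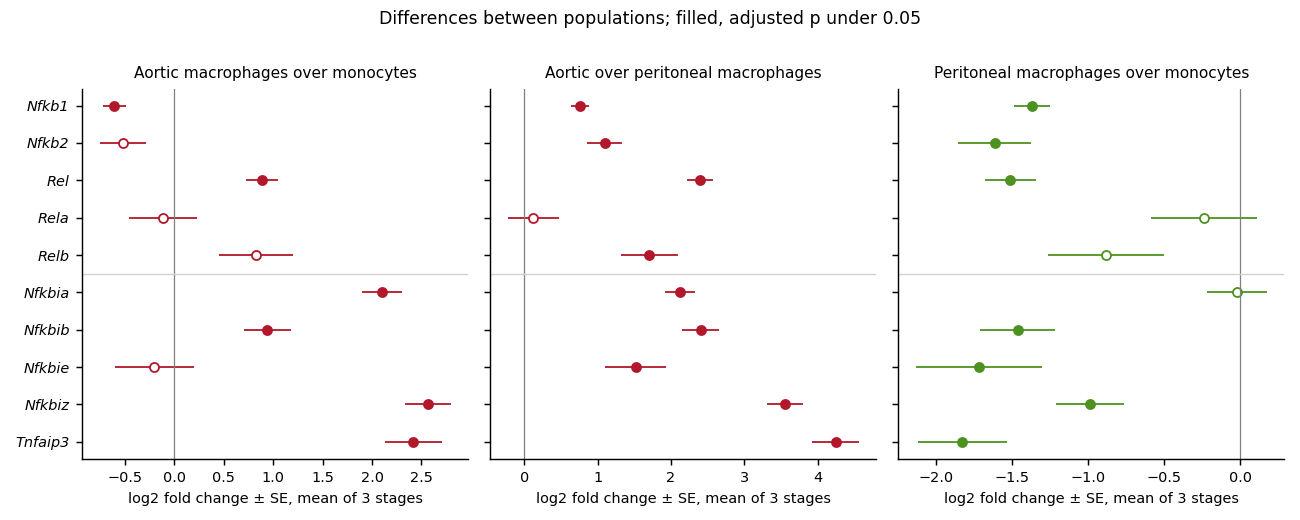
Log2 differences (± SE) between populations, averaged over 3 stages, for each gene, from a fit of all 36 libraries with 12 per population. Filled points have an edgeR adjusted p under 0.05, and Tnfaip3 reaches 4.24 for the aorta over the peritoneum.

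In the fit of aortic libraries alone, Nfkbiz was the only gene of the 10 with a rise over baseline that passed edgeR's threshold. It had 364, 366, 365 and 1085 CPM in the 4 baseline libraries, 1946, 1668, 1951 and 1771 CPM at the early stage and 1369, 2632, 1621 and 2384 CPM at the advanced stage. Baseline libraries 1 to 3 were nearly equal, baseline 4 stood well above them, and all diet libraries were higher still, a separation seen for early over baseline in 5.77% of genes. The early stage was higher than baseline by 1.81 ± 0.35 on the log2 scale, 3.51-fold (edgeR adjusted p = 0.0247), and the advanced stage was higher than baseline by 1.94 ± 0.35, 3.85-fold (edgeR adjusted p = 0.00905). It was 1 of 10 genes called in each, against 0.373% of 9920 genes (0.312% higher) for early over baseline and 0.585% (0.534% higher) for advanced over baseline, which share their baseline libraries. None of the 10 passed for advanced over early in edgeR or DESeq2 and none had an unadjusted p under 0.05, with 0.0403% of all genes called. Leaving out any of baseline 1 to 3 or of early 1, 3 and 4 lost the early call of Nfkbiz, with an edgeR adjusted p of at most 0.091, and leaving out baseline 2 lost the advanced call, at 0.0513. Without baseline 4 the estimates were 2.49 and 2.62.

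Tnfaip3 and Rel were next in the aorta and turned on baseline 4. Tnfaip3 had 97.6, 171, 79.6 and 779 CPM at baseline, 1249.6, 527, 776 and 377 CPM at the early stage and 1135, 1185, 1022 and 1121 CPM at the advanced stage. The advanced libraries of Tnfaip3 were close to each other and all above baseline. The difference of 2.01 ± 0.56 was larger than that of Nfkbiz, yet did not pass (edgeR adjusted p = 0.118). At matched depth Tnfaip3 passed, at 2.23 (edgeR adjusted p = 0.036). Rel had 82.7, 125, 105 and 324 CPM at baseline, 244, 209.6, 242 and 237 CPM at the early stage and 328, 434, 383 and 299 CPM at the advanced stage, with advanced over baseline at 1.25 ± 0.40 (edgeR adjusted p = 0.165). Every advanced library of Rel was above every early one, a separation seen in 8.65% of genes. Without baseline 4, 4 genes passed in each comparison with baseline: Tnfaip3 at 2.81 for early and 3.43 for advanced, Nfkbia at 1.40 and 1.42, Rel at 1.32 and 1.95, and Nfkbiz. Baseline 4 held the highest baseline value of each of these genes, so leaving it out raises their estimates by construction. The share of all genes called without it is not given here. The same 4 genes passed without all libraries that stood apart, where 114 of 10942 genes were called for early over baseline and 173 for advanced over baseline.

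Nfkbia had 298, 406, 748 and 1192 CPM at aortic baseline, 1573, 1142, 1109 and 830.0 CPM at the early stage and 803, 1289.8, 1179.8 and 1390.0 CPM at the advanced stage. Its baseline libraries spanned a wide range and overlapped the diet libraries, and early over baseline was 0.87 ± 0.36 (edgeR adjusted p = 0.361). Nfkbib had 3 baseline libraries at 19.7 to 21.8 CPM and 1 at 53.4 CPM, against 56.7 to 73.7 CPM at the advanced stage, with no overlap. That difference, 1.30 ± 0.68, did not pass (edgeR adjusted p = 0.645), and non-overlap held for 3 of the 10 genes (Nfkbib, Nfkbiz and Tnfaip3) and 9.24% of all genes. Rela, Relb and Nfkbie varied widely between aortic libraries of a group. Rela had 64.0, 105, 1.70 and 54.4 CPM at baseline, 3.56, 80.0, 9.13 and 36.6 CPM at the early stage and 37.3, 53.2, 72.8 and 60.8 CPM at the advanced stage. Relb ranged from 7.77 to 135 CPM at baseline and 2.00 to 51.8 CPM at the early stage, and Nfkbie from 0.379 to 178 CPM at baseline and 8.52 to 71.7 CPM at the early stage. The advanced libraries were narrower for all 3 genes, at 37.8 to 52.2 CPM for Relb and 33.5 to 74.2 CPM for Nfkbie, and the stages overlapped. Nfkb2 had 122, 29.5, 36.6 and 6.64 CPM at baseline, 80.3, 139.5, 68.5 and 139 CPM at the early stage and 133, 103, 124 and 117 CPM at the advanced stage. Baseline 1 was the only baseline library of Nfkb2 within the advanced range, and advanced over baseline was 1.46 ± 0.64 (edgeR adjusted p = 0.471). Nfkb1 ran from 141 to 279 CPM over the 12 aortic libraries, with advanced over baseline at 0.66 ± 0.35 (edgeR adjusted p = 0.65).

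Baseline 4 held the highest baseline value for 7 of the 10 genes, and early-response genes were also highest in it. A list of 19 immediate-early and heat-shock genes, which rise within minutes to hours of stimulation or handling, summed to 7336, 8177, 9629 and 18587 CPM in aortic baseline 1 to 4. The list summed to 37390 CPM in early 1 and 23074 to 27792 CPM in the other 3 early libraries, and to 18234 to 25131 CPM at the advanced stage. Fibroblast markers in the aorta summed to 8.89 to 287 CPM at baseline, 510.1 to 1058 CPM at the early stage and 140.2 to 379 CPM at the advanced stage. The part of either list in the changes of the 10 genes was not tested.

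In peritoneal macrophages Nfkbiz and Tnfaip3 rose at the early stage and fell again by the advanced stage. Nfkbiz had 89.4, 63.4, 90.1 and 66.3 CPM at baseline, 66.0, 299, 245 and 201 CPM at the early stage and 80.9, 51.0, 71.9 and 47.5 CPM at the advanced stage. Early libraries 2 to 4 stood above all others, and early 1 lay among the baseline libraries. Early over baseline was 1.43 ± 0.32, 2.70-fold (edgeR adjusted p = 0.0421), and advanced over early was -1.65 ± 0.34 (edgeR adjusted p = 0.0384). Tnfaip3 had 22.6, 27.6, 29.5 and 15.5 CPM at baseline, 32.1, 99.3, 47.2 and 40.3 CPM at the early stage and 20.8, 25.2, 20.7 and 19.0 CPM at the advanced stage. Its early libraries did not overlap with either other stage, which held for 9.49% of genes against baseline and 7.84% between advanced and early. The difference was 1.25 ± 0.28 over baseline (edgeR adjusted p = 0.0399) and -1.31 ± 0.30 for advanced over early (edgeR adjusted p = 0.0497). Those 2 genes were the 2 of 10 called in each comparison, against 1.79% of 9575 genes (1.37% higher) for early over baseline and 1.33% (0.804% lower) for advanced over early, which share the early libraries.

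These calls sit close to the threshold. With a library left out, each gene kept its call in 3 of 12 fits for early over baseline and in 4 of 12 for advanced over early. Thinned to the shallowest library, Tnfaip3 was 1.02 over baseline and did not pass (edgeR adjusted p = 0.0959). Without early 2, the highest library, Tnfaip3 was 0.81 over baseline and -0.88 for advanced over early (adjusted p = 0.0883 and 0.105), and Nfkbiz was 1.22 and -1.44 (adjusted p = 0.0979 and 0.0898). Without early 1, which lay with the baseline libraries, Nfkbiz was 1.73 and -1.95 (adjusted p = 0.000258 and 0.00017). The immediate-early and heat-shock list summed to 2375 CPM in early 1 and 6731, 6871 and 4735 CPM in early 2 to 4, against 1482 to 2486 CPM at baseline and 1139 to 1919 CPM at the advanced stage. Its part in the result was not tested.

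Nfkbia had estimates of the same sign that did not pass in edgeR. It had 153, 172, 213 and 189 CPM at peritoneal baseline, 149, 502, 331 and 311 CPM at the early stage and 252, 121, 105 and 109 CPM at the advanced stage. Early over baseline was 0.86 ± 0.32 and advanced over early -1.10 ± 0.32 (edgeR adjusted p = 0.148 and 0.0989), the second passing in DESeq2 (adjusted p = 0.0282). Rela differed in the other direction: its 42.4 to 50.9 CPM at baseline were above all libraries of the early stage (31.8 to 38.7 CPM) and the advanced stage (30.3 to 37.7 CPM), a separation of advanced from baseline seen in 15.1% of genes. Early over baseline was -0.40 ± 0.11 and advanced over baseline -0.45 ± 0.11, both short of the threshold in edgeR (adjusted p = 0.0812 and 0.0755) and past it in DESeq2 (adjusted p = 0.0353 and 0.0241). Nfkb1 was at 0.00 ± 0.10 for early over baseline with a 95% interval of -0.22 to 0.22, and Rel at -0.02 ± 0.15. Early 2 held the highest of the 4 early values for 8 of the 10 genes, among them Nfkb2 at 67.6 CPM against 31.3 to 44.9 CPM in the other 3 early libraries, and Nfkbie at 48.5 CPM with the other 3 early libraries far below it. Nfkbib, the inhibitor with the lowest median CPM here, had 7 to 14 reads per library at the advanced stage and was at -0.56 ± 0.33 for advanced over baseline (edgeR adjusted p = 0.449). For advanced over baseline none of the 10 genes passed in edgeR, 1 (Rela) had an unadjusted p under 0.05, DESeq2 called 1, and 0.898% of all genes were called.

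In monocytes the subunit Rela was lower after 6 months of diet than on chow, and Relb passed at the edge of the threshold. Rela (chr19:5637483-5648130, plus strand), the p65 subunit with a strong transactivation domain, had 61.7, 67.9, 71.9 and 69.9 CPM at baseline, 50.9, 58.6, 52.3 and 54.4 CPM at the early stage and 46.3, 32.9, 43.9 and 42.1 CPM at the advanced stage. No library overlapped between any pair of stages, which held for 17.4% of genes for early over baseline and 9.45% for advanced over early. Advanced over baseline was -0.65 ± 0.13, a ratio of 0.637 (edgeR adjusted p = 0.00329), and this call was kept without any single library (12 of 12 fits, adjusted p up to 0.0122). Relb, with 27.7, 31.3, 31.3 and 25.6 CPM at baseline, 32.7, 31.6, 20.8 and 22.1 CPM at the early stage and 12.6, 19.1, 19.6 and 23.2 CPM at the advanced stage, was at -0.59 ± 0.20 for advanced over baseline (edgeR adjusted p = 0.0479). The Relb call was kept in 4 of 12 fits with a library left out, and its p reached 0.142 without advanced 1. It was lost with DESeq2 (adjusted p = 0.0547), RLE size factors (0.0593), no filter on low counts (0.0629) and without Rn45s (0.0514). These 2 of 10 calls are near the background of 19.0% of 9465 genes called, or 9.75% called lower.

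The other 3 subunits had negative estimates that did not pass. Nfkb1 had 336, 341, 386 and 327 CPM at monocyte baseline, 276, 316, 339 and 336 CPM at the early stage and 255, 295, 255 and 312 CPM at the advanced stage, and its advanced libraries were all below baseline at -0.27 ± 0.10 (edgeR adjusted p = 0.0639). Rel was at -0.33 ± 0.13 and Nfkb2 at -0.30 ± 0.14 for advanced over baseline (edgeR adjusted p = 0.0762 and 0.16). All 5 subunits had negative estimates in each of the 3 monocyte comparisons. Of the inhibitors 4 of 5 had positive estimates for early over baseline, all 5 had negative ones for advanced over early (median -0.32, against -0.21 for the subunits), and 4 of 5 had negative ones for advanced over baseline. Nfkbiz had 157, 303, 270.4 and 146 CPM at monocyte baseline, 275, 248, 194 and 285 CPM at the early stage and 83.4, 242, 247 and 329.8 CPM at the advanced stage. The stages of Nfkbiz overlapped throughout, as did those of Tnfaip3, at 63.2 to 194 CPM at baseline, 123 to 167 CPM at the early stage and 52.9 to 155 CPM at the advanced stage. None of the 10 genes passed in edgeR for early over baseline or advanced over early, with 2 at an unadjusted p under 0.05 in each and 10.8 and 2.05% of all genes called, and DESeq2 called none in either. Nfkb1, Rela and Relb had no overlap between advanced and baseline libraries, as did 22.2% of all genes. Thinned to the shallowest library, Rela was at -0.51 and Relb at -0.56 and neither passed (adjusted p = 0.0835 and 0.18), while Nfkb1 passed at -0.32 (adjusted p = 0.0469). Neutrophil markers, which were higher in all diet libraries than at baseline, reached 36424 CPM in advanced 3, and their part was not tested. Without monocyte advanced 3, Rela was at -0.70 ± 0.15 (adjusted p = 0.0078).

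**Figure D4:**
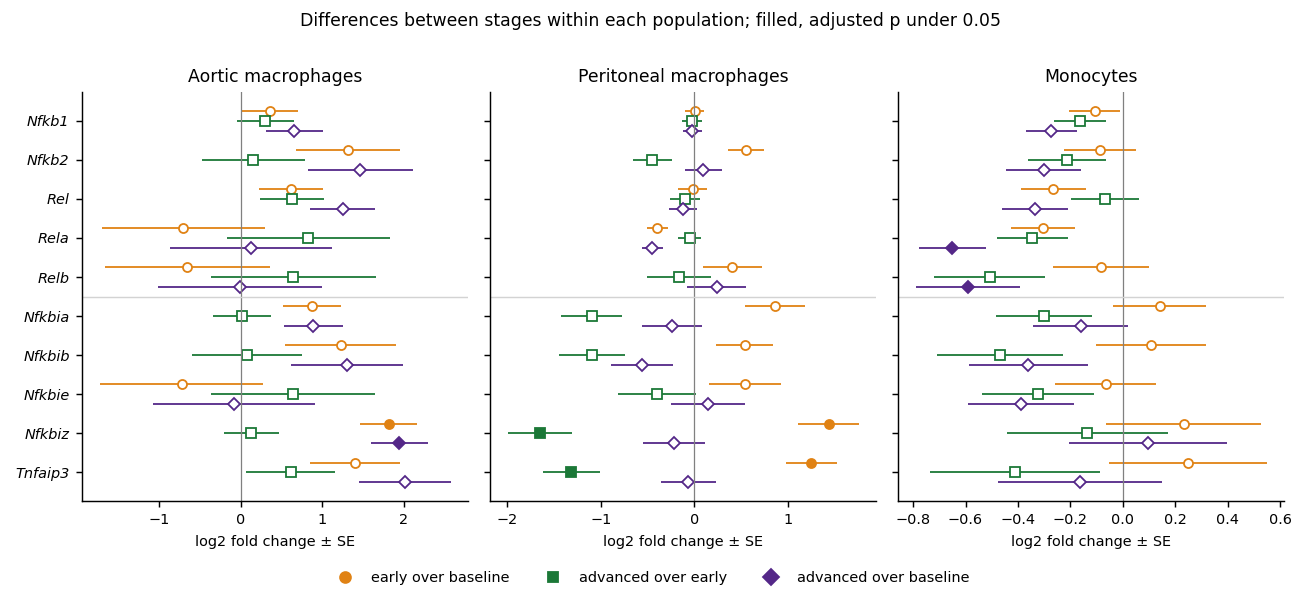
Log2 differences (± SE) between stages within each population, 4 libraries a group, with filled points for an edgeR adjusted p under 0.05. Filled are Nfkbiz in the aorta (1.81 and 1.94 over baseline), Nfkbiz and Tnfaip3 in the peritoneum (1.43 and 1.25, then -1.65 and -1.31) and Rela and Relb in monocytes (-0.65 and -0.59).

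Whether the responses differed between populations was tested on the difference of the within-population estimates. None of the 10 genes passed in any of the 6 such comparisons, where 0.0784, 0.255 and 1.44% of genes did for early over baseline and 0.0560, 0.188 and 1.32% for advanced over early. The numbers with an unadjusted p under 0.05 were 3, 0 and 3 for early over baseline (aorta minus monocytes, aorta minus peritoneum, peritoneum minus monocytes) and 0, 3 and 2 for advanced over early, in the same order. Nfkbiz came nearest. Its response from the early to the advanced stage differed between peritoneum and monocytes by -1.52 ± 0.46 (adjusted p = 0.0821) and between aorta and peritoneum by 1.78 ± 0.48 (adjusted p = 0.137). Its early response differed between aorta and monocytes by 1.58 ± 0.46 (adjusted p = 0.172). Without aortic baseline 4, Nfkbiz, Tnfaip3 and Rel passed for the early response of the aorta against monocytes, at 2.26, 2.56 and 1.59 (adjusted p = 0.00155, 0.00272 and 0.00933), and Rel passed against the peritoneum at 1.34 (adjusted p = 0.0492). In the same fit Nfkbiz and Tnfaip3 passed for advanced over early in the aorta against the peritoneum, at 1.78 and 1.93 (adjusted p = 0.034 and 0.0264). Without peritoneal early 1, Nfkbiz passed in that comparison at 2.08 (adjusted p = 0.00606) and for peritoneum minus monocytes in both, at 1.501 and -1.82 (adjusted p = 0.0242 and 0.00886), and without monocyte advanced 1 it passed for advanced over early against monocytes at -1.80 (adjusted p = 0.0288).

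Other genes of the pathway were read from lists chosen by function. Of 26 known NF-kB target genes, 18 of 24 tested were higher and 1 lower in the aorta than in monocytes, with a median of 2.65, against a median of -0.04 over all genes. In that comparison 36.6% of all genes were called, 18.4% higher and 18.2% lower. Ier3, an early survival gene, differed by 5.21 ± 0.28, the chemokine gene Ccl2 by 6.29 ± 0.42 and the stress-response gene Gadd45b by 4.20 ± 0.30. Against the peritoneum 20 of 24 were higher and 1 lower in the aorta, beside 34.1% of all genes called (17.1% higher). Among those higher was the adhesion molecule gene Vcam1. It averaged 271 ± 62.6 CPM in advanced aortic libraries and 0.113 ± 0.226 CPM in advanced peritoneal libraries (SD, n = 4 each). Fibroblast markers, at 140 to 379 CPM in advanced aortic libraries, were at most 0.904 CPM in advanced peritoneal ones, and their part was not tested. The peritoneum against monocytes gave 5 higher and 13 lower, beside 29.8% of all genes called (14.8% lower). Among 8 ligands that start the pathway, 3 of 5 tested were higher and 1 lower in the aorta than in monocytes, beside 36.6% of all genes. Tnf was at 4.34 ± 0.34 and Il1b at 2.84 ± 0.42. Tnf averaged 399 ± 140 CPM in advanced aortic libraries, against 146 ± 133 CPM at aortic baseline (SD, n = 4 each).

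Between receptor and inhibitor few genes passed by stage. Of 19 kinases and adaptors that carry the signal to NF-kB, none passed in any stage comparison of the aorta or the peritoneum in edgeR, with 0 to 2 in the aorta and 1 to 7 in the peritoneum at an unadjusted p under 0.05. In monocytes 2 of 19 were lower at the early stage and 5 of 19 at the advanced stage than at baseline. Of all 9465 genes tested, 480 were called lower at the early stage and 923 (9.75%) at the advanced stage. In either direction 10.8 and 19.0% of all genes were called. The smallest p of the 19 was that of Map3k14, the NIK kinase of the non-canonical route, at -0.84 ± 0.13 (edgeR adjusted p = 0.00067). In the aorta against monocytes 2 of these 19 were higher and 6 lower, beside 36.6% of all genes called in either direction, among them Ikbkb, which encodes a catalytic IKK subunit, at -0.94 ± 0.15. Of 11 receptors 7 were higher and 2 lower, beside the same 36.6% of all genes. The lipopolysaccharide co-receptor Cd14 was at 4.00 ± 0.18 and the tumour necrosis factor receptor Tnfrsf1b at -1.91 ± 0.15. Of 14 further inhibitors, 4 were higher and 5 lower in the aorta than in monocytes, again beside 36.6% of all genes called. Nfkbid, a nuclear IkB protein like Nfkbiz, was higher by 1.99 ± 0.24, the RNase gene Zc3h12a by 1.39 ± 0.23 and the A20 partner Tnip2 by 1.41 ± 0.24, and the ubiquitin ligase gene Itch was lower, at -0.97 ± 0.10.

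Known targets also differed between stages. In the aorta Cxcl2 and Ccl3 rose at the early stage (2.56 ± 0.31 and 3.17 ± 0.48), and 5 of 23 were higher at the advanced stage than at baseline, among them Cxcl1 at 4.19 ± 0.68, Cxcl2 at 3.28 ± 0.32, Vcam1 at 3.27 ± 0.54 and Il1b, which is also on the list of ligands, at 2.66 ± 0.56. Of all genes in the aorta, 0.312% were called higher than baseline at the early stage and 0.534% at the advanced stage. The median of the 23 targets was 1.47 for early over baseline, against -0.02 over all genes. The part of fibroblasts in these aortic targets was not tested. In the peritoneum Ccl2 and Cxcl1 rose at the early stage (4.19 ± 0.64 and 3.26 ± 0.65) and 4 of 15 fell again from the early to the advanced stage, with Ccl2 at -4.96 ± 0.85. Of all genes there, 1.37% were called higher at the early stage and 0.804% lower from the early to the advanced stage. In monocytes Ccl5, Ccl4 and Ccl2 rose at the early stage and the survival gene Bcl2l1 fell by 1.41 on the log2 scale (SE 0.27). Ccl5 and Ccl4 are also made by T and NK cells, and markers of those cells summed to 40.3 to 552 CPM in early monocyte libraries and 10.6 to 34.7 CPM at baseline, with 5 of 6 called higher, as were 543 of all 9465 genes tested. B cell markers summed to 32.7 to 129 CPM in early monocyte libraries and 13.8 to 40.2 CPM at baseline, with 3 of 3 tested called higher. The part of these cells in the result was not tested. The immediate-early and heat-shock list had 8 of 19 higher in the early aorta, 11 of 17 higher in the early peritoneum and 11 of 17 lower in the advanced than in the early peritoneum, with medians of 1.38, 1.76 and -1.93 against -0.02, 0.02 and -0.02 over all genes. Of all genes, 0.312, 1.37 and 0.804% were called in these directions. In early monocytes 5 of 17 were higher, beside the same 543 of 9465 genes, led by Hspa1a at 3.43 ± 0.41.

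Levels of the immediate-early and heat-shock list are set beside those of Nfkbiz and Tnfaip3 here, with no correlation computed. The 12 aortic libraries had 7336 to 37390 CPM of the list, against 1139 to 6871 CPM in the peritoneum and 2034 to 5832 CPM in monocytes. Monocyte advanced 1, with the lowest sum of its population, also had the lowest Nfkbiz (83.4 CPM) and Tnfaip3 (52.9 CPM) values of the 12 monocyte libraries. Peritoneal early 1 was the lowest early library of the peritoneum in the list and in Nfkbiz. From the early to the advanced aorta the median of the list went from 26429 to 22161 CPM. At the same stages the median of Tnfaip3 was 651 and then 1128 CPM, and that of Nfkbiz was 1858 and then 2003 CPM. Neither gene passed edgeR's threshold between those stages, and the stages of Nfkbiz overlapped. Rela had 61.7 to 71.9 CPM in monocyte baseline libraries whose list sums ran from 3006 to 5693 CPM. The part of the list in these levels was not tested.

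**Figure D5:**
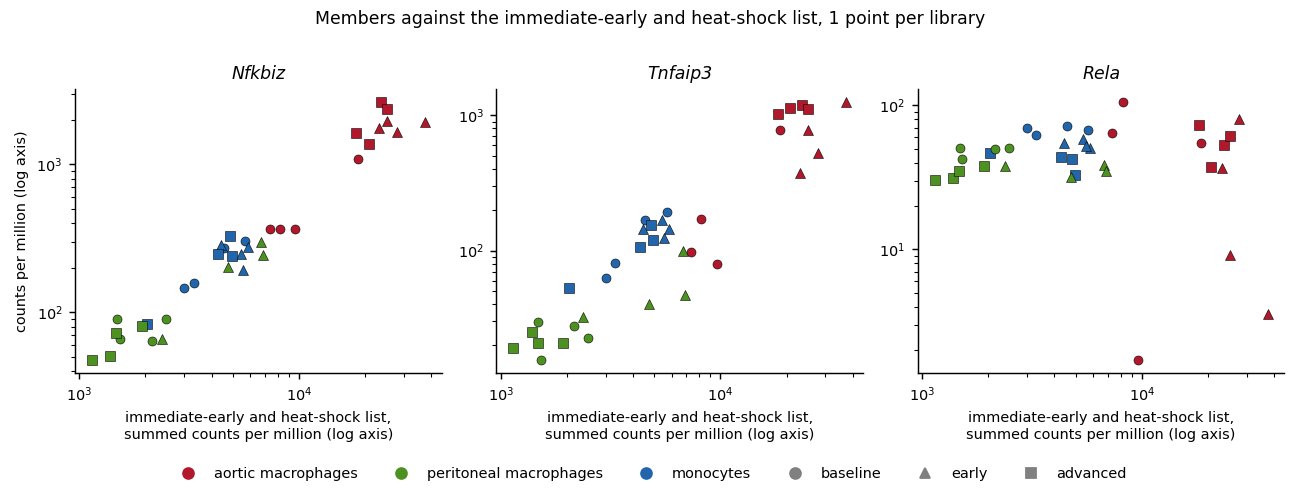
CPM of Nfkbiz, Tnfaip3 and Rela against the summed CPM of 19 immediate-early and heat-shock genes, both on log axes, with a point per library. Nfkbiz runs from 47.5 CPM in a peritoneal library to 2632 CPM in an aortic one. Rela lies between 30.3 and 71.9 CPM in the peritoneal and monocyte libraries and between 1.70 and 105 CPM in the aortic ones.

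The genes most like the 10 in pattern were found by their correlation with the mean standardised log2(CPM + 1) of the 10. Over all 36 libraries these were Spty2d1 (Pearson r = 0.945), Skil (0.939), Kdm6b (0.932), Pim1 (0.930), Il1b (0.922) and Cxcl10 (0.899). Within the 12 aortic libraries they were Plek, Kdm6b, Socs3 and Cd83 (0.975 to 0.954), within the peritoneum Dnmt3a, Lipe, Myo9b and Dstyk (0.952 to 0.922), and within monocytes Rasa4, Nfkbid, Rictor and Pdgfb (0.936 to 0.913). Of the 10 themselves, Rel correlated most with their common pattern over all libraries (0.953) and Rela least (0.237). Each of the 10 is part of that pattern, which raises its own correlation, so these values are not comparable with those of other genes. Libraries share population and depth, so these are descriptions.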

How the data were processed

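Messenger RNA of 36 sorted cell libraries was sequenced as paired ends on a NextSeq500 after Ovation SoLo library preparation, per the labels' protocols. The authors deposited whole read counts per gene for each library, made with STAR and featureCounts on mm10 per the submitters' processing notes, with versions, strand setting and filters not given in the sources used here. The deposited counts were used as they are. CPM is the count per library total, and RPKM also divides by the union of exons in GENCODE's annotation of GRCm38.

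Genes passing edgeR's filterByExpr were tested across the whole table with edgeR 4.0.16 (TMM, quasi-likelihood test, R 4.3.3) and Benjamini-Hochberg adjustment at 0.05: stages within a population over 12 libraries, populations over all 36 libraries averaged over stages. A difference between 2 populations' responses was tested as the difference of their estimates over its standard error. Alternatives were DESeq2 1.42.0, RLE size factors, no filter on low counts, thinning to the shallowest library, a replicate block, separate spreads, each library left out, and the libraries that stood apart left out. An exact permutation within stages was added after the data were seen. Scripts were tested on simulated counts. All 10 members are named. Of the other lists, up to 4 genes with the smallest p per comparison could be named. Members, lists and the libraries called apart were chosen with earlier results of these data known. Rn45s took 4.74 to 19.8% of reads.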

Additional observations from a re-analysis of the deposited data

Results flagged for a closer look

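In 8 of the 90 groups of 4 libraries (10 genes in 9 groups) a single library stood far from the other 3. Its gap to the nearest library, divided by the range of the group, was above Dixon's 95% critical value for 4 samples, which chance alone exceeds in about 1 of 20 groups. Aortic baseline 4 was the library in 4 of them. In it Nfkbiz had 1085 CPM, against 364 to 366 CPM in the other 3 (ratio 0.997023), Tnfaip3 had 779 CPM, against 79.6 to 171 CPM (0.86876), Relb had 135 CPM, against 7.77 to 27.5 CPM (0.845678), and Nfkb1 had 195 CPM, against 141 to 150.0 CPM (0.836578). In aortic baseline 3 Nfkbib had 53.4 CPM, against 19.7 to 21.8 CPM (0.939509).

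In the peritoneum Nfkbie had 10.2 CPM in baseline 4, against 17.5 to 17.7 CPM in the other 3 (0.971264), and Rela had 42.4 CPM in the same library, against 49.8 to 50.9 CPM (0.87053). Nfkbia had 252 CPM in peritoneal advanced 1, against 105 to 121 CPM in the other 3 advanced libraries (0.891389).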

How the results depend on the processing

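Counts of the 10 genes called are given here for each setting that moved them by over 1.5 times. For early over baseline in the aorta, where 1 was called, the count was 3 without a filter on low counts, 4 without the libraries that stood apart, 4 with all 36 libraries in a single fit and 0 to 4 with a library left out. Calls over all genes rose too, from 37 of 9920 to 151 of 15468 without the filter and 114 of 10942 without those libraries. With all 36 libraries 2113 of 11052 genes were called. For advanced over baseline in the aorta, again 1, it was 3 without the filter, 2 with thinned counts, 4 without the libraries that stood apart, 6 with all 36 libraries and 0 to 4 with a library left out. Over all genes, calls there went from 58 of 9920 to 165 of 15468 without the filter and 90 of 8679 with thinned counts. They were 173 of 10942 without the libraries that stood apart and 1816 of 11052 with all 36 libraries. For advanced over baseline in monocytes, 2 became 1 (Rela kept, Relb lost, except that thinning kept neither and called Nfkb1) with RLE size factors, without the filter, with DESeq2, with the replicate block, with thinned counts, without the libraries that stood apart and without Rn45s, 0 with all 36 libraries, and 1 to 4 with a library left out. For early over baseline in the peritoneum, 2 became 1 with the replicate block or thinned counts, 0 with all 36 libraries, and 0 to 2 with a library left out. For advanced over early in the peritoneum, 2 became 0 with the replicate block, 1 without the libraries that stood apart or with all 36 libraries, and 0 to 3 with a library left out. For advanced over baseline in the peritoneum, 0 became 1 with DESeq2 or without the libraries that stood apart, and 0 to 1 with a library left out. Left-out libraries gave 6 to 8 calls for the aorta against monocytes, 9 in every fit for the aorta against the peritoneum and 7 in every fit for the peritoneum against monocytes. For the other settings the share of all genes called is not given here, so these counts are not read as particular to the 10 genes.

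The responses, with 0 called, changed as follows. For the early response of the aorta against monocytes the count was 1 without the filter, 1 with thinned counts, 4 without the libraries that stood apart and 0 to 3 with a library left out. Against the peritoneum it was 0 to 1 with a library left out. For the peritoneum against monocytes it was 1 without the libraries that stood apart and 0 to 1 with a library left out. For advanced over early, the aorta against the peritoneum gave 2 without the filter, 2 without the libraries that stood apart and 0 to 2 with a library left out, and the peritoneum against monocytes gave 1 without the filter, with thinned counts or without the libraries that stood apart, and 0 to 1 with a library left out. Fewer libraries or reads enter the thinned and left-out fits, and the cause of the other changes was not tested. Over all settings 4401 of the values for single genes kept their direction and side of the threshold, 75 newly passed, 70 no longer passed and 134 changed sign without being called, and no called value changed sign. Same-numbered libraries within a population had a median correlation of -0.009, over 0.1 in 1 of 36 pairs. Between populations of a stage the median was 0.020, over 0.1 in 4 of 36, against 2 of 108 for different numbers. No label ties a number to a mouse, and whether same-numbered libraries of a stage share mice was not tested. The numbers were not taken as pairs, and the block is given only here. With the block, Nfkb2 passed for the aorta against monocytes, at -0.66 (edgeR adjusted p = 0.0317). Depth was lower at the diet stages, where Relb in aortic early 4 rested on 4 reads. Low counts also occurred in the deeper baseline libraries, with 2 reads of Nfkbie in aortic baseline 3. Aortic baseline 3 and 4 had reads for 7790 and 7565 genes, from 5.28 and 9.33 M counted reads. The aortic diet libraries had reads for 9216 to 13293 genes.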
